A study of Mus musculus with 9 samples.

Results

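Genes that move iron into, within and out of cells were followed in mouse liver RNA: the transferrin receptors Tfrc and Tfr2, the transferrin gene Trf, the divalent metal transporter Slc11a2, the sensor Hfe, the ferritin subunits Fth1 and Ftl1, the exporter Slc40a1 (ferroportin), and the hepcidin genes Hamp and Hamp2. They were the rows of a normalized expression table that carry these symbols, 10 genes of 37583. The symbol matched for 9 of them, and Tfr2 was found by its Ensembl ID because the table calls it Trfr2. Livers came from adult male C57Bl6 mice of 16 to 20 weeks that had fasted for 6 h, and each group had 3 mice. Wild-type mice (Gcgr+/+) received PBS, mice labelled Gcgr-/- received PBS, and a second group of Gcgr+/+ mice received weekly intraperitoneal injections, over 10 days, of an antibody against the glucagon receptor (humanized, monoclonal, 10 mg/kg). The study used the latter 2 groups as models of lost glucagon receptor signalling. Which bases of Gcgr are disrupted in the Gcgr-/- mice is not stated in the labels. Nothing shows whether mice of a group came from separate litters, so p-values measure the spread between these mice.

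Hepatocytes take up transferrin-bound iron through transferrin receptors, store iron in ferritin shells built of heavy and light chains, and release it through ferroportin. The liver also sets iron levels for the whole body: it secretes hepcidin, the peptide made from Hamp, which binds ferroportin on the cell surface and causes its breakdown. Within a cell, the iron regulatory proteins bind hairpins called iron-responsive elements when iron is scarce; binding in a 5′ untranslated region holds back translation, and binding in the 3′ untranslated region of the Tfrc mRNA protects that mRNA from decay.

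Antibody-labelled livers held less Tfrc mRNA and more Slc40a1 mRNA than wild-type livers. Tfrc was at 28.9% of its wild-type mean (2195 ± 358 normalized counts in the wild-type group, 634 ± 84.6 in antibody-labelled livers; SD, n = 3 each). Slc40a1 was at 167% of its wild-type mean (10374 ± 1288 against 17357 ± 2501; SD, n = 3 each). These were the 2 members of 10 past an adjusted p of 0.05 in limma's test with Benjamini-Hochberg adjustment, 1 higher and 1 lower, beside 1.34% of all 20029 genes tested (0.714% higher and 0.624% lower). The same 2 genes passed, in the same directions, in antibody-labelled against knockout-labelled livers, where 0.280% of all genes passed (0.190% higher and 0.0899% lower). That comparison uses the same 3 antibody-labelled livers, so it is not independent of the first. In knockout-labelled against wild-type livers 0 of 10 members passed, beside 0.155% of all genes, and 0 members had an unadjusted p under 0.05. All 10 members passed the filter on low values.

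The libraries' summed values ranged from 42.4 to 52.1 M (mega) normalized counts, and the estimated number of reads assigned to genes from 11.0 to 30.1 M. The first knockout-labelled library was the shallowest, at 11.0 M estimated reads, and the next shallowest held 21.6 M. Gcgr, the targeted gene, did not follow the labels: it had 18521 ± 993 normalized counts in wild-type livers, 22717 ± 4093 in those labelled Gcgr-/- (123% of wild type) and 2192 ± 351 in those labelled as given antibody (11.8%). Whether the labels of these 2 groups were exchanged was not tested. Whether the allele leaves the counted transcript in place in knockout-labelled livers, and why Gcgr was low in antibody-labelled livers, was not tested either. The groups are therefore called knockout-labelled and antibody-labelled throughout, and every direction holds for the labels and not for a known state of the receptor.

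Matches to a pattern of the iron-responsive element are shown first, because the genes that carry them include both genes that passed the test. The GENCODE M21 transcripts of the members (build GRCm38) were searched on the sense strand for a C, any 5 bases, the letters CAGTG, then A, C or T, then 5 bases that pair with the first 5, with G-T pairs allowed. In the sequences below, written 5′ to 3′ with 6 bases on each side of the match, capitals mark the loop.
Fth1, 5′ untranslated, chr19:9982732-9982760, plus strand: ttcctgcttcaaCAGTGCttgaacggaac
Ftl1, 5′ untranslated, chr7:45459779-45459807, minus strand: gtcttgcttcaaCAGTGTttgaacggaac
Slc40a1, 5′ untranslated, chr1:45925465-45925493, minus strand: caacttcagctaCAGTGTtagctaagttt
Tfrc, 3′ untranslated, site 1, chr16:32631219-32631247, plus strand: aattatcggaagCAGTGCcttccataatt
Tfrc, 3′ untranslated, site 2, chr16:32631598-32631626, plus strand: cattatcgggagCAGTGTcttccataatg
Tfrc, 3′ untranslated, site 3, chr16:32631663-32631691, plus strand: ctatatcggagaCAGTGAtctccatatgt
Tfrc, 3′ untranslated, site 4, chr16:32631710-32631738, plus strand: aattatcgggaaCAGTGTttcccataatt

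Fth1, Ftl1 and Slc40a1 each held 1 match in the 5′ untranslated region, and Tfrc held 4 in the 3′ untranslated region, so 4 of the 10 members matched. Among one principal transcript for each protein-coding gene, 18 of 19797 5′ untranslated regions (0.0909%) and 78 of 19964 3′ untranslated regions (0.391%) held a match, and Tfrc was the 1 gene with 4 or more. The 4 genes with a match did not move alike: Tfrc was lower and Slc40a1 higher in antibody-labelled livers, while Fth1 and Ftl1 did not pass the test in any comparison. A match describes the letters of the transcript, and binding was not measured. The pattern asks for an unbroken paired stem, so elements of another shape would be missed. Members without a match, Slc11a2 among them, are therefore not shown to lack an element.

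Per kilobase of transcript, and by the members' own rows alone, the ferritin heavy chain led and the transferrin receptor Tfrc came last. The place of Trf, and with it the first place, is uncertain. The row Gm20425, which overlaps Trf on the same strand, held 194341 to 365366 normalized counts, more than Trf itself. The means over all 9 livers, in normalized counts per kilobase, were 56584 for Fth1, 40611 for Hamp, 32892 for Trf, 28608 for Ftl1, 10528 for Tfr2, 3631 for Slc40a1, 944 for Hfe, 828 for Slc11a2, 772 for Hamp2 and 393 for Tfrc. This order held for the group means of wild-type and of antibody-labelled livers. In knockout-labelled livers Hamp2 (1265) stood above Hfe (956) and Slc11a2 (954), and Tfrc (599) was again last. The ranges over the 9 livers overlapped between neighbours in this order from Fth1 to Ftl1 and again from Hfe to Tfrc. They did not overlap between Ftl1 and Tfr2, between Tfr2 and Slc40a1, or between Slc40a1 and Hfe. The fewest estimated reads behind any value of a member were 46.8, for Hamp2 in the first knockout-labelled liver.

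**Figure D1:**
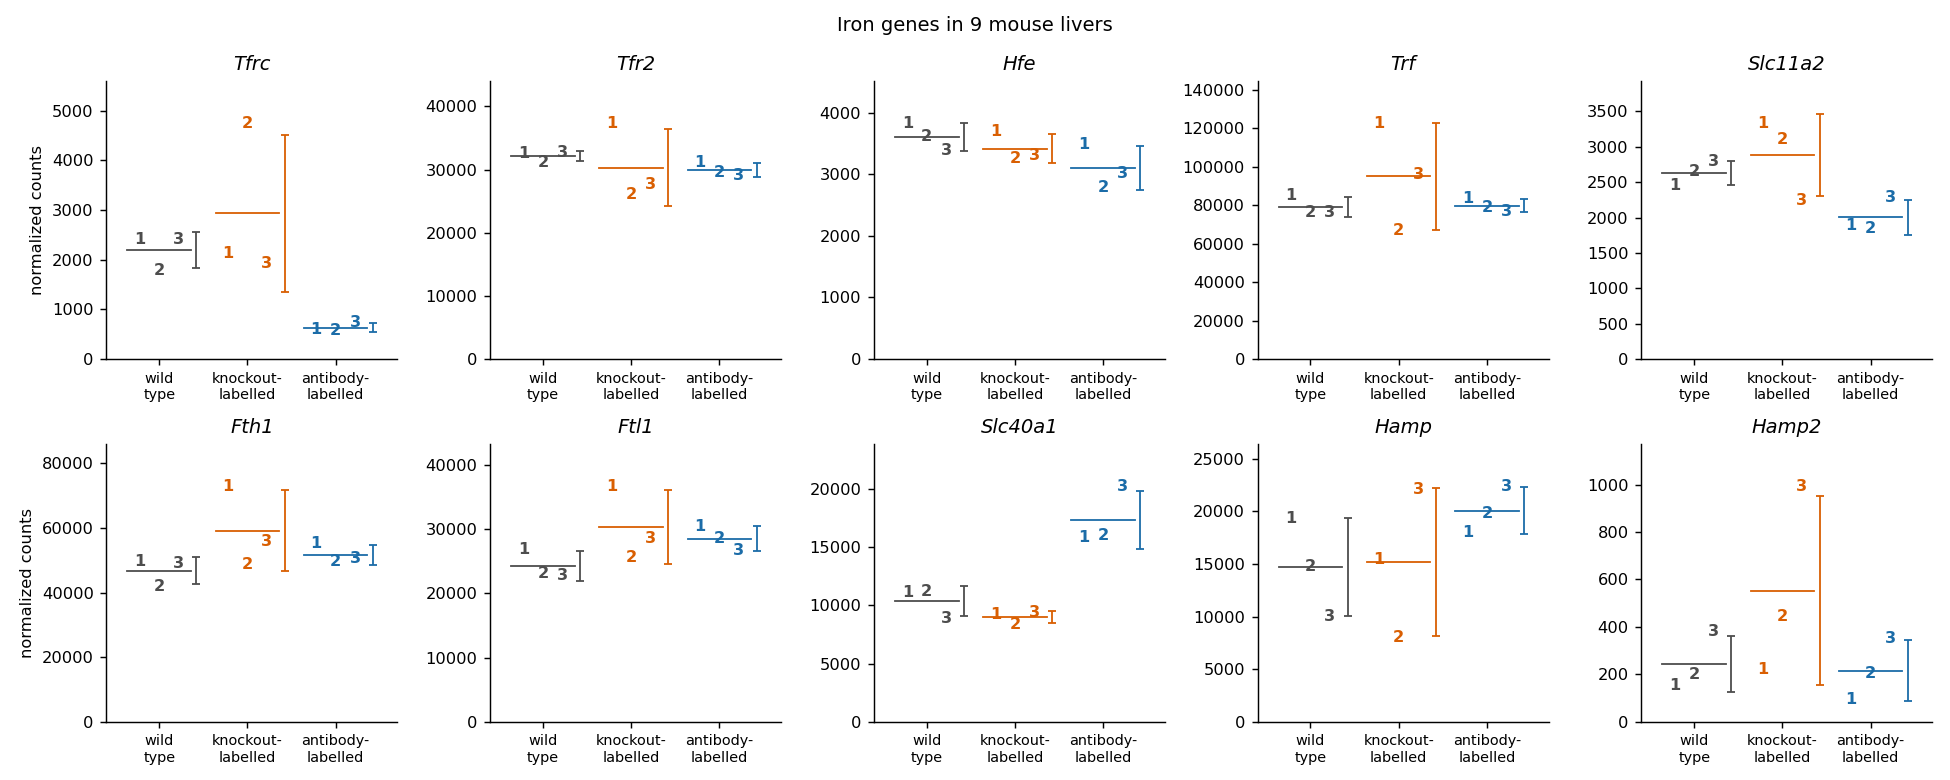
Level of each of the 10 iron genes in each liver, in normalized counts (vertical axes start at 0; digits give the replicate, lines the group mean, bars 1 SD, n = 3). The 3 antibody-labelled livers lie below all others for Tfrc and above all others for Slc40a1, and the second knockout-labelled liver is the highest for Tfrc.

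Tfrc encodes transferrin receptor 1, which carries iron-loaded transferrin into cells (mm9 chromosome 16, 32609006 to 32632880, plus strand). It had 2400, 1781 and 2404 normalized counts in the wild-type livers, 2117, 4744 and 1931 in the knockout-labelled livers, and 593, 577 and 731 in the antibody-labelled livers. Every antibody-labelled liver lay below every other liver, and the second knockout-labelled liver stood above the rest. Compared with wild type, Tfrc in antibody-labelled livers fell by 1.79 log2 units (SE 0.30, 95% interval -2.47 to -1.10, limma adjusted p = 0.0242). Against knockout-labelled livers it fell by 2.09 (SE 0.30, limma adjusted p = 0.0435). Without the second knockout-labelled liver that difference was -1.68 (limma adjusted p = 0.0032). The difference between knockout-labelled and wild-type livers was 0.31 (SE 0.30, 95% interval -0.38 to 0.99, limma adjusted p = 0.702), and it was -0.10 without the second knockout-labelled liver.

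The call of Tfrc against wild type was lost when any 1 wild-type liver was left out (adjusted p 0.0982, 0.0532 and 0.0757 without replicates 1, 2 and 3) or any 1 antibody-labelled liver (0.0818, 0.114 and 0.0665). Against knockout-labelled livers it was lost without the first or second wild-type liver (0.0686 and 0.0615), the first knockout-labelled liver (0.0800) or any antibody-labelled liver (0.130, 0.174 and 0.0851). It was also lost in both comparisons with no filter on low values (0.146 and 0.122) and with no trend and no robust estimation (0.0861 and 0.136), and against knockout-labelled livers with only those 6 libraries fitted (0.0837). A block for the replicate number lost it in both comparisons as well. The direction held in every one of these fits.

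Slc11a2 encodes DMT1, which moves ferrous iron across membranes, out of endosomes among others (mm9 chromosome 15, 100218329 to 100255503, minus strand). It had 2447, 2648 and 2791 normalized counts in wild-type livers, 3329, 3096 and 2235 in knockout-labelled livers, and 1881, 1842 and 2281 in antibody-labelled livers. The antibody-labelled livers all lay below the wild-type livers and overlapped with the third knockout-labelled liver. The difference from wild type was -0.40 (SE 0.15, 95% interval -0.73 to -0.07, limma adjusted p = 0.343), which did not pass, and that from knockout-labelled livers was -0.51 (SE 0.15, limma adjusted p = 0.175). A minus-strand gene, it overlaps the plus-strand gene Gm5475, whose values lay between 13.6 and 32.3 normalized counts in the 9 livers.

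Trf encodes transferrin, the plasma carrier that the liver secretes (mm9 chromosome 9, 103106331 to 103132774, minus strand). Its values were 85211, 75999 and 76112 normalized counts in the wild-type group, 122399, 66921 and 95668 in knockout-labelled livers, and 83322, 78645 and 76809 in antibody-labelled livers. The knockout-labelled livers held both the highest and the lowest value, and wild-type and antibody-labelled livers overlapped. No comparison passed, with log2 differences of 0.22, 0.01 and -0.21 in knockout-labelled and in antibody-labelled livers against wild type, and in antibody-labelled against knockout-labelled livers (SE 0.18; limma adjusted p = 0.628, 0.996 and 0.660). Trf is uncertain, because the row Gm20425 covers nearly all of it on the same strand and reaches beyond one end (mm9 chromosome 9, 103092538 to 103132637) and held 194341 to 365366 normalized counts; how reads were divided between these rows is not stated in the labels.

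Neither sensor of circulating iron passed the test in any comparison. Tfr2, the transferrin receptor that signals to the hepcidin gene in hepatocytes (mm9 chromosome 5, 138011079 to 138028709, plus strand), had 32545, 31181 and 32758 normalized counts in the wild-type group, 37312, 26055 and 27616 in knockout-labelled livers, and 31156, 29565 and 29057 in antibody-labelled livers. The antibody-labelled livers all lay just below the wild-type livers, and knockout-labelled livers spread to both sides. The differences were -0.10, -0.10 and -0.0015 in the same 3 comparisons (SE 0.14; limma adjusted p = 0.783, 0.900 and 0.999). The 95% interval of antibody-labelled against wild type ran from -0.40 to 0.19, so a change in Tfr2 of the size seen in Tfrc lies outside it. The transcripts of Tfrc and Tfr2 shared 62.1% of their aligned bases and no stretch of 50 bases.

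Hfe, which binds transferrin receptor 1 and takes part in the signal to hepcidin (mm9 chromosome 13, 23793903 to 23802723, minus strand), had 3826, 3607 and 3380 normalized counts in the wild-type group, 3687, 3262 and 3298 in knockout-labelled livers, and 3488, 2789 and 3008 in antibody-labelled livers. All 3 groups overlapped. Its differences were -0.08, -0.22 and -0.15 (SE 0.11; limma adjusted p = 0.801, 0.548 and 0.612), and none passed.

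Both ferritin genes were highest in the same liver. Fth1, the heavy chain with the enzyme activity that oxidises iron (mm9 chromosome 19, 10057193 to 10059582, plus strand), had 49462, 41973 and 48905 normalized counts in the wild-type group, 72947, 48790 and 55886 in knockout-labelled livers, and 55215, 49469 and 50448 in antibody-labelled livers. Ftl1, the light chain that helps build the iron core (mm9 chromosome 7, 52713314 to 52715254, minus strand), had 26900, 23041 and 22850 in wild type, 36708, 25571 and 28561 in knockout-labelled livers, and 30484, 28513 and 26606 in antibody-labelled livers. For both genes that was the first knockout-labelled liver, the shallowest library. The summed hepatocyte markers were highest in it as well, at 3099969 normalized counts, and the part of either in these values was not tested. Per kilobase, Fth1 was at 2.01 ± 0.19 times the level of Ftl1 in wild type, 2.03 ± 0.04 times in knockout-labelled and 1.89 ± 0.08 times in antibody-labelled livers (SD, n = 3). The wild-type range overlapped with both others. The antibody-labelled livers (1.81 to 1.98) lay just below the knockout-labelled livers (1.99 to 2.07), at 1.976 against 1.988 where they came closest. Between these 2 groups, 17.2% of single genes did not overlap, and the ratio was not tested.

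Neither ferritin gene passed in any comparison. In knockout-labelled against wild-type livers the differences were 0.32 for Fth1 (SE 0.15, limma adjusted p = 0.370) and 0.31 for Ftl1 (SE 0.14, limma adjusted p = 0.368), and without the first knockout-labelled liver they were 0.16 and 0.16. In antibody-labelled against wild-type livers they were 0.15 (limma adjusted p = 0.860) and 0.24 (limma adjusted p = 0.672). The antibody-labelled Fth1 values all lay above the wild-type values, while those of Ftl1 overlapped with them. The pseudogene row Ftl2 held 21.6 to 41.7 normalized counts, far below Ftl1.

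Slc40a1 encodes ferroportin, through which hepatocytes and macrophages release iron (mm9 chromosome 1, 45964915 to 45982439, minus strand). It had 11071, 11163 and 8888 normalized counts in the wild-type livers, 9229, 8363 and 9344 in the knockout-labelled livers, and 15843, 15985 and 20245 in the antibody-labelled livers. Every antibody-labelled liver lay above every other liver, and the other 2 groups overlapped. Compared with wild type, Slc40a1 in antibody-labelled livers rose by 0.74 log2 units (SE 0.13, 95% interval 0.45 to 1.03, limma adjusted p = 0.0182). Against knockout-labelled livers it rose by 0.94 (SE 0.13, limma adjusted p = 0.0268), while knockout-labelled against wild-type livers differed by -0.20 (SE 0.13, limma adjusted p = 0.537).

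The call against wild type was lost without wild-type liver 1, 2 or 3 (adjusted p 0.0514, 0.0517 and 0.0606) and without antibody-labelled liver 2 or 3 (0.0501 and 0.0763). That against knockout-labelled livers was lost without the first knockout-labelled liver (0.0758) or any antibody-labelled liver (0.0505, 0.102 and 0.0678). Both calls were lost with no trend and no robust estimation (0.107 and 0.136), and the latter with only those 6 libraries fitted (0.0510). In a piece of whole liver, a change in how many cells of a type are present and a change in mRNA per cell cannot be told apart. The 13 Kupffer cell and macrophage markers, cells rich in ferroportin, summed to 30713 to 40449 normalized counts in the wild-type group, 31993 to 47326 in knockout-labelled and 36497 to 40343 in antibody-labelled livers, and none of the 13 was at the floor of the table. The sums overlapped between all groups. Singly, 11 of the 13 markers had a positive difference in antibody-labelled against wild-type livers, with a median of 0.16. In knockout-labelled against wild-type livers, 11 of the 13 were positive as well, with a median of 0.17. Over all genes tested, the median was 0.002 in antibody-labelled and -0.010 in knockout-labelled livers against wild type. In antibody-labelled against wild-type livers, 2 of the 13 had groups that did not overlap, beside 19.2% of all genes tested (9.65% higher). They were Cd163 at 0.43 (unadjusted p = 0.0363, limma adjusted p = 0.434) and Cd68 at 0.23 (limma adjusted p = 0.737), both named after their values were seen. The part of the 13 markers in the Slc40a1 result was not tested.

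Within each liver the exporter can be set against the uptake receptor, which cancels any scaling of the library. Per kilobase, Slc40a1 was at 6.69, 9.09 and 5.37 times the level of Tfrc in the wild-type livers and at 6.33, 2.56 and 7.02 times in the knockout-labelled livers. In the antibody-labelled livers it was at 38.7, 40.2 and 40.2 times. The antibody-labelled livers lay far above the others and close to each other, with a mean of 39.7 ± 0.84 (SD, n = 3). This ratio was formed from the 2 genes already seen to differ, so it describes them and adds no test.

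**Figure D2:**
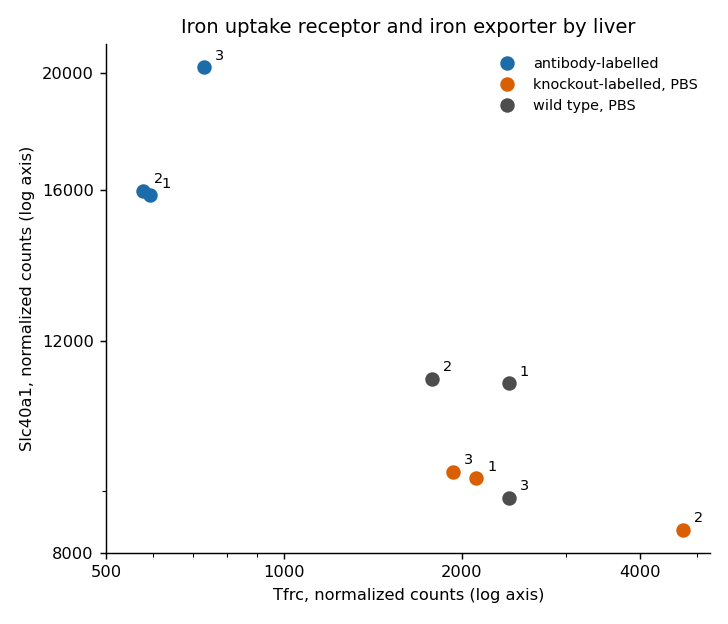
Slc40a1 against Tfrc in each of the 9 livers, in normalized counts on log axes (digits give the replicate). The 3 antibody-labelled livers sit at the upper left, at 577 to 731 for Tfrc and 15843 to 20245 for Slc40a1, and the wild-type and knockout-labelled livers overlap at the lower right.

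Hamp encodes hepcidin (mm9 chromosome 7, 31727390 to 31729036, minus strand), and Hamp2 is a neighbouring copy that mice carry (31707391 to 31709200 on the same chromosome and strand). The bone morphogenetic protein (BMP) pathway raises Hamp when iron is plentiful, and interleukin 6 raises it through the STAT3 factor in inflammation. The 250 bases before the start of each gene, from RefSeq (GRCm38.p6), are printed because they are near copies that differ at the element through which BMP signals act. Capitals mark GGCGCC, the BMP-responsive element, and the STAT element, searched as TTCNNNGAA.
Hamp, chr7:30944030-30944279, minus strand: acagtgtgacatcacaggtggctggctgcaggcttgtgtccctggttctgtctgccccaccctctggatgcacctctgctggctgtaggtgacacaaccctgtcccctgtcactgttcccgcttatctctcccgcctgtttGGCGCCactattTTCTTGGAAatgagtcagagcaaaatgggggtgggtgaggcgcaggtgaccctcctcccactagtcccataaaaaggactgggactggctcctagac
Hamp2, chr7:30924182-30924431, minus strand: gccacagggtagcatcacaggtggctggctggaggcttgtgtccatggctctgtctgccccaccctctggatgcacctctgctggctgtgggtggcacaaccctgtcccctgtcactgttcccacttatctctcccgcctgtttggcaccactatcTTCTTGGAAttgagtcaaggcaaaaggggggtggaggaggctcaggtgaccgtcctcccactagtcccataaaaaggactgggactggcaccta

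Both promoters held TTCTTGGAA, 97 bases upstream of the start in Hamp and 94 in Hamp2. GGCGCC lay 109 bases upstream in Hamp and was not among the letters of the Hamp2 window. The aligned promoters were identical at 227 of 247 bases (91.9%). On either strand, 9.59% of 32851 promoters of this length held GGCGCC and 7.02% held TTCNNNGAA. Of the 7 members with a RefSeq promoter, 2 held GGCGCC (Hamp and Tfrc), 2 held the STAT element (Hamp and Hamp2), 1 held ACGTG, the core of a hypoxia-responsive element (Tfr2; 16.6% of all promoters), 0 held TGACG, part of the cAMP-responsive element (17.8% of all), and 0 held TATAAA (12.4% of all).

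Hamp varied widely between livers of one group. It had 19332, 14735 and 10030 normalized counts in the wild-type group, 15455, 8042 and 22077 in knockout-labelled livers, and 18009, 19778 and 22395 in antibody-labelled livers. The antibody-labelled values were all in the upper part of the range but overlapped with the first wild-type liver and the third knockout-labelled liver. The mean was 14699 ± 4651 in wild type and 20061 ± 2207 in antibody-labelled livers (SD, n = 3), a log2 difference of 0.49 (SE 0.36, 95% interval -0.32 to 1.31, limma adjusted p = 0.778). The interval includes both no change and a rise larger than that of Slc40a1. In knockout-labelled against wild-type livers the difference was -0.02 (SE 0.36, limma adjusted p = 0.988), and leaving out single livers moved it from -0.35 without the third knockout-labelled liver to 0.38 without the second.

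Hamp2 was far lower than Hamp in all 9 livers. Its values were 153, 201 and 379 normalized counts in the wild-type group, 222, 443 and 993 in knockout-labelled livers, and 94.7, 201 and 350 in antibody-labelled livers. The groups overlapped, and the third knockout-labelled liver was the highest. Within every group the values rose from the first to the third replicate, a pattern named after the values were seen. What the replicate numbers stand for was not tested. The differences were 1.02, -0.27 and -1.28 in knockout-labelled and in antibody-labelled livers against wild type, and in antibody-labelled against knockout-labelled livers (SE 0.66; limma adjusted p = 0.548, 0.958 and 0.445). With a block for the replicate number, the last of these differences passed (-1.28, limma adjusted p = 0.0395). Per kilobase, Hamp2 amounted to 0.494% to 5.17% of Hamp. Hamp2 is uncertain, because the 2 transcripts were identical at 388 of 410 aligned bases (94.6%), with an identical run of 87 bases, and 60 of the 388 windows of 50 bases in Hamp2 occurred in Hamp as well.

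**Figure D3:**
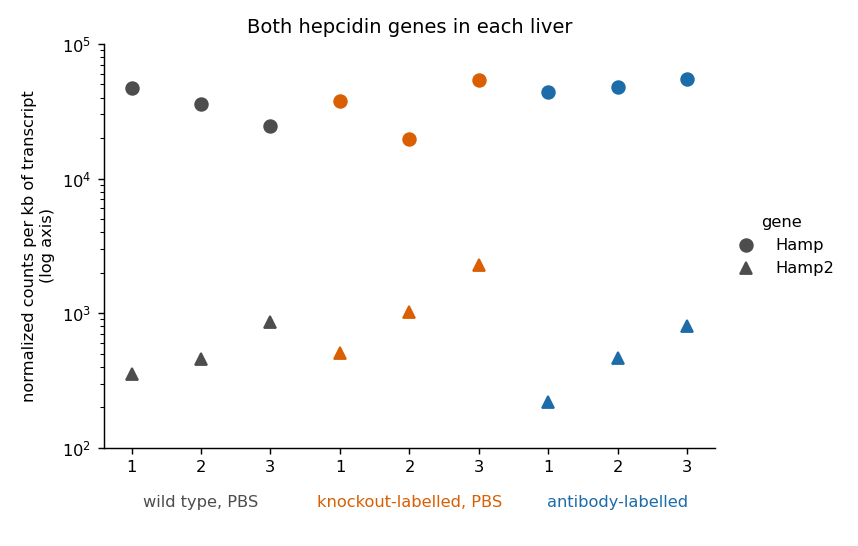
Hamp (circles) and Hamp2 (triangles) in each liver, in normalized counts per kilobase of transcript on a log axis, with replicates 1 to 3 of each group along the horizontal axis. Hamp was at 19.4 to 203 times the level of Hamp2 in the 9 livers, and neither gene separates the groups.

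Over the 10 members, the median log2 difference was 0.17 and -0.05 in knockout-labelled and in antibody-labelled livers against wild type, and -0.16 in antibody-labelled against knockout-labelled livers, beside -0.01, 0.00 and 0.02 over all genes tested. In antibody-labelled against wild-type livers, 5 of 10 members had groups that did not overlap, 2 higher (Slc40a1 and Fth1) and 3 lower (Tfrc, Tfr2 and Slc11a2), beside 19.2% of all genes (9.65% higher and 9.54% lower). Between antibody-labelled and knockout-labelled livers 2 of 10 did not overlap, beside 17.2%, and between knockout-labelled and wild-type livers 0 of 10, beside 16.4%.

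**Figure D4:**
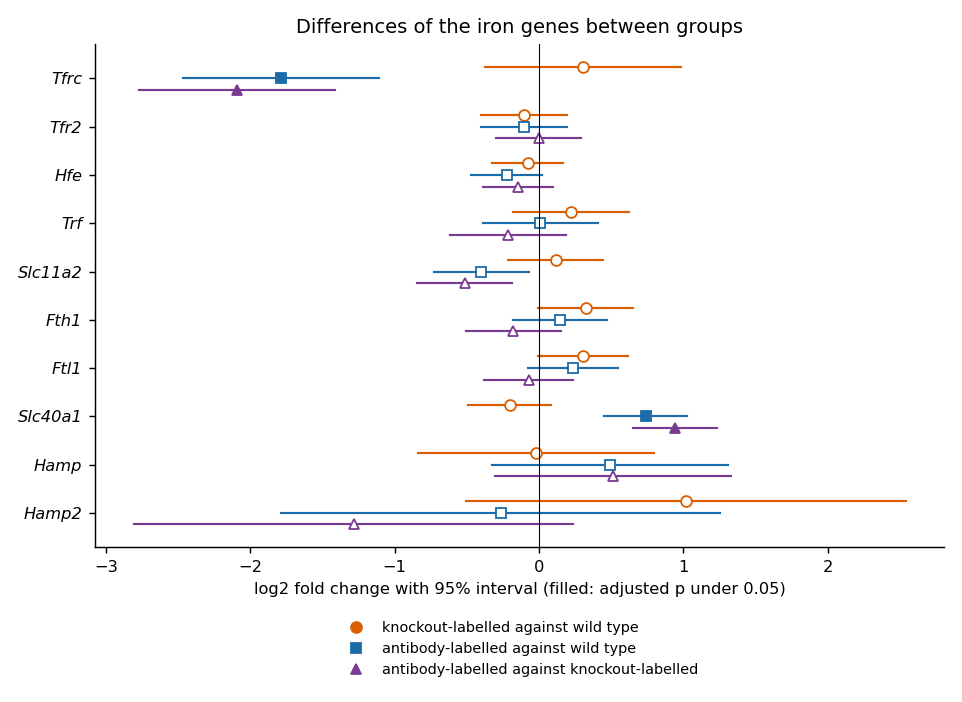
Log2 fold change of each iron gene in the 3 comparisons, with 95% intervals from limma (filled symbols have an adjusted p under 0.05). Tfrc and Slc40a1 have the 4 filled symbols, at -1.79 and -2.09 for Tfrc and 0.74 and 0.94 for Slc40a1, and Hamp2 has the widest intervals.

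Around the members, 87 other genes of iron and haem handling were taken in 5 lists, and 86 were tested. Of these, 1 passed in antibody-labelled against wild-type livers and 0 in the other 2 comparisons by limma. At an unadjusted p under 0.05 there were 22 of 86 and 9 of 86 in knockout-labelled and in antibody-labelled livers against wild type, and 16 of 86 in antibody-labelled against knockout-labelled livers, where the whole table held 2758, 2057 and 2666 of 20029 genes. The 1 gene that passed was Cp, ceruloplasmin, the copper oxidase that loads released iron onto transferrin. It had 54566, 54986 and 63106 normalized counts in the wild-type group, 92641, 75964 and 70625 in knockout-labelled livers, and 84504, 84426 and 94992 in antibody-labelled livers. All 6 livers of the latter groups lay above all wild-type livers. Cp rose by 0.61 in antibody-labelled against wild-type livers (SE 0.13, limma adjusted p = 0.0483), and the difference was 0.46 in knockout-labelled against wild-type livers (SE 0.13, limma adjusted p = 0.159), which did not pass. The call was lost without any 1 wild-type liver (adjusted p 0.205, 0.211 and 0.0680) or any 1 antibody-labelled liver (0.119, 0.133 and 0.198). A pseudocount of 5 (0.0515), median-of-ratios scaling (0.0661) or no trend and no robust estimation (0.135) lost it too, as did a block for the replicate number.

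Of the 19 tested genes of iron transport and ferritin handling Cp was the 1 that passed, and 6, 3 and 4 had an unadjusted p under 0.05 in the 3 comparisons; the mitochondrial ferritin Ftmt was at the floor in all 9 livers. In knockout-labelled against wild-type livers the smallest p of this list was that of Slc39a14, a transporter of iron not bound to transferrin. It had 13396, 12417 and 10669 normalized counts in wild type and 6780, 7490 and 9275 in knockout-labelled livers. The difference was -0.64 (SE 0.14, limma adjusted p = 0.0873). These groups did not overlap, which held for 4 of the 19 genes of the list and for 16.4% of all genes tested. Between antibody-labelled and knockout-labelled livers it was Steap2, a metal reductase, with a difference of 0.89 (SE 0.22, limma adjusted p = 0.114). Both missed the threshold. The list's median differences were -0.24, -0.04 and 0.22 in knockout-labelled and in antibody-labelled livers against wild type, and in antibody-labelled against knockout-labelled livers.

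Of 25 genes listed under hepcidin regulation, 0 passed in any of the 3 comparisons by limma, with 6, 1 and 7 at an unadjusted p under 0.05. The smallest p belonged to Il6st, the shared receptor chain gp130 of interleukin 6, in knockout-labelled against wild type (-0.36, SE 0.11, limma adjusted p = 0.179) and in antibody-labelled against knockout-labelled (0.46, SE 0.11, limma adjusted p = 0.110). Its values were 9817, 9313 and 8497 normalized counts in the wild-type group, 6907, 8007 and 6662 in knockout-labelled livers, and 10309, 9875 and 9368 in antibody-labelled livers. The knockout-labelled livers lay below all others. In antibody-labelled against wild type it was Atoh8, a transcription factor linked to Hamp, at 0.58 (SE 0.19, limma adjusted p = 0.250).

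Among the 3 genes of iron regulatory proteins and their turnover (Aco1, Ireb2 and Fbxl5) 0 passed in any comparison by limma, with 1, 0 and 0 at an unadjusted p under 0.05. Ireb2, which encodes iron regulatory protein 2, had the smallest p in each comparison, with differences of -0.37, -0.13 and 0.24 (SE 0.12; limma adjusted p = 0.188, 0.822 and 0.406). Of 22 genes of haem synthesis, uptake and breakdown 0 passed in any comparison, with 5, 5 and 5 at an unadjusted p under 0.05. Flvcr2, a haem and choline transporter, had the smallest p in both comparisons with wild type, at -0.72 in knockout-labelled and -0.56 in antibody-labelled livers (SE 0.18; limma adjusted p = 0.113 and 0.215). Abcb10, a mitochondrial transporter, had it in antibody-labelled against knockout-labelled livers at 0.34 (SE 0.11, limma adjusted p = 0.202).

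Of 17 genes that assemble iron-sulfur clusters 0 passed in any comparison by limma, with 4, 0 and 0 at an unadjusted p under 0.05. Their smallest p belonged to Glrx5 in knockout-labelled against wild type (0.35, limma adjusted p = 0.221), Fdx1l in antibody-labelled against wild type (0.27, limma adjusted p = 0.494) and Bola3 in antibody-labelled against knockout-labelled livers (-0.25, limma adjusted p = 0.380). All 3 take part in building or transferring the clusters.

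**Figure D5:**
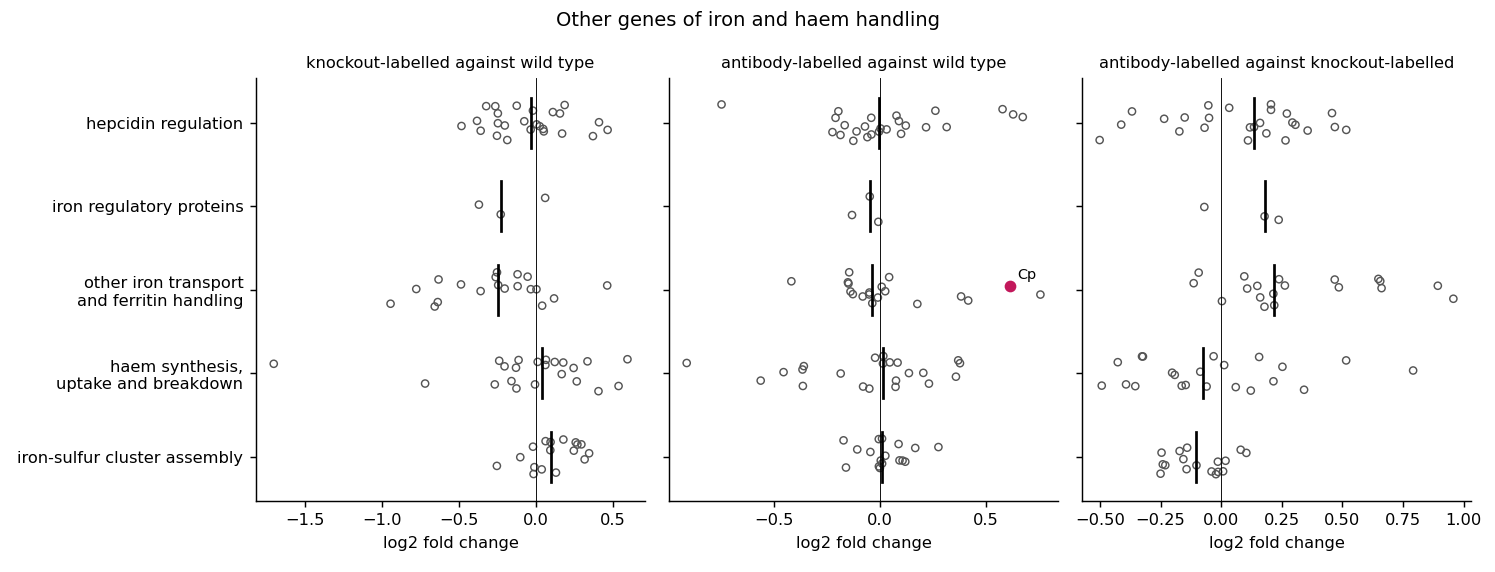
Log2 fold change of each of the 86 tested genes in 5 lists of iron and haem handling, in the 3 comparisons (circles; vertical bars mark list medians, the horizontal scale differs between panels, and points are spread vertically for sight only). The filled point is Cp at 0.61 in antibody-labelled against wild-type livers, the 1 gene past an adjusted p of 0.05.

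For the genes at the centre of the system, the tested genes with the most similar profile over the 9 livers were named by the root-mean-square distance between log2 profiles, each centred on its own mean, among 10005 genes at or above the median level. Nearest to Tfrc were Ugt1a9, Apoa4 and Elovl5, at distances of 0.44, 0.52 and 0.52 where the median gene was at 1.00. Nearest to Slc40a1 were Mme, Plxna2 and Zfp704, at 0.14, 0.15 and 0.16 against a median of 0.46. Nearest to Hamp were D630039A03Rik, Gamt and Cml1, at 0.24, 0.25 and 0.25 against a median of 0.52. Nearest to Tfr2 were Ndfip1, Ctage5 and Brf1, at 0.05, 0.06 and 0.06 against a median of 0.23. The nearest genes lie below the median distance by construction. The members' own profiles spread around their means by 0.99 (Tfrc), 0.43 (Slc40a1), 0.48 (Hamp) and 0.14 (Tfr2), as root mean squares. A flat profile would lie at that distance, so distances cannot be compared between members. They are descriptions over the same 9 libraries.

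Of 57 tested markers of Kupffer cells, erythroid cells, sinusoidal endothelium, stellate cells and hepatocytes 0 passed in any comparison by limma, with 7, 4 and 7 at an unadjusted p under 0.05. The 12 hepatocyte markers, led by Alb, summed to 2028849 to 2384520 normalized counts in the wild-type group, 1982721 to 3099969 in knockout-labelled and 1938884 to 2095625 in antibody-labelled livers with none of the 12 at the floor. Erythroid cells, which are rich in Tfrc while they mature, were represented by 11 rows led by Hbb-b1. Their sums were 10467 to 14044 in wild type, 8682 to 13109 in knockout-labelled and 8061 to 14159 in antibody-labelled livers, with Rhag at the floor in all groups. The sums overlapped between all groups. Singly, 9 of the 10 tested erythroid markers had a negative difference in antibody-labelled against wild-type livers, with a median of -0.29, the direction in which Tfrc moved; their part in the Tfrc result was not tested. The 12 endothelial markers, led by Eng, summed to 34757 to 38810, 35964 to 40386 and 38537 to 42074 in the same order of groups, and Cd5l led the Kupffer cell markers. The 10 stellate cell and fibroblast markers, led by Dcn, summed to 15329 to 17726, 16502 to 17754 and 18033 to 19019. Their sums in antibody-labelled livers lay above all others, as Slc40a1 did. Singly, 9 of the 10 had a positive difference in antibody-labelled against wild-type livers, with a median of 0.21. There, 1 of the 10 had groups that did not overlap, beside 19.2% of all genes tested. Against knockout-labelled livers it was 2 of the 10, beside 17.2%. The part of these markers in the Slc40a1 result was not tested.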

How the data were processed

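Poly(A)-selected liver RNA of 9 mice was sequenced in paired 50 bp reads, with 50 M reads planned per library per the labels' protocols. Tools named per the submitters' processing notes are TopHat2 2.0, FastQC and SAMtools, with the build mm9; which tools counted and scaled is not given in the sources used here. In the deposited table stands 1 normalized signal per gene and library, called normalized counts here, made by the authors; no value lies under 1, and 15160 of 37583 genes were at 1 throughout. Depth was estimated by taking the commonest value above the floor as the worth of 1 read (1.50 to 4.74). Whole reads could not be recovered, so no count model was run.

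Values were taken as log2(value + 1), so fold changes understate the change of low genes. The 20029 genes above 1 in at least 3 libraries were fitted with limma 3.58.1 in R 4.3.3 (group means over all 9 libraries, eBayes with trend and robust estimation), with two-sided tests, Benjamini-Hochberg adjustment across all of them per contrast and 0.05 as threshold; the fit was tested on simulated data. The smallest exact permutation p for 3 against 3 is 0.1, so no permutation test was run. Sequences and lengths came from GENCODE M21 (GRCm38) and RefSeq (GRCm38.p6), read with Python 3.11.15; coordinates of genes are those of the table, in mm9. Levels per kilobase divide by the length of 1 principal transcript.

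The members and gene lists were chosen with earlier results of these data known. All members and Gcgr were named, then from each pathway list the genes past the threshold and the gene with the smallest p per contrast, from each marker list the gene with the highest mean, and for 4 members the 3 nearest profiles. Of 61 listed markers 58 were matched to rows. Alternatives varied the pseudocount, filter, scaling, variance model, library weights, libraries fitted, a replicate block and each library left out. All value columns of the table were used.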

Additional observations from a re-analysis of the deposited data

How the results depend on the processing

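Each result was recomputed under 20 alternatives, 11 settings and 9 that left out 1 library; those for Gcgr, Cp, other pathway genes and marker counts were chosen after seeing the data. Of 1240 values compared, 1110 kept direction and side of the threshold (counts within 1.5 times). Slc40a1 passed against wild type in 14 of 20 (0.63 to 0.83, adjusted p 0.0026 to 0.107) and against knockout-labelled livers in 14 (0.83 to 1.03, 5.85e-04 to 0.136). Tfrc passed in 11 (-1.93 to -1.71, 5.06e-04 to 0.146) and 10 (-2.33 to -1.68, 0.0032 to 0.174). Cp passed against wild type in 10 (0.56 to 0.83, 0.0022 to 0.211). Their directions held throughout.

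In antibody-labelled against wild type, the count of members past the threshold was 1 with no filter, 0 with no trend and no robust estimation, 1 with the replicate block, and 0 to 2 without single libraries. In antibody-labelled against knockout-labelled it was 1 with no filter, 0 with no trend and no robust estimation, 0 with only the 6 libraries compared, and 0 to 2 without single libraries. In knockout-labelled against wild type it was 0 in all alternatives. Of other iron genes, against wild type, antibody-labelled livers gave 0 with a pseudocount of 5, median-of-ratios scaling, no trend or the replicate block, 2 with library weights or only 6 libraries, and 0 to 1 without single libraries; knockout-labelled livers gave 1 with no filter and 0 to 2 without single libraries. Against knockout-labelled livers 0 to 1 passed without single libraries. Markers past the threshold numbered 1 with no filter in knockout-labelled and 1 with library weights or the replicate block in antibody-labelled against wild type, and 0 to 2 without single libraries in knockout-labelled against wild type. The cause of these moves was not tested.

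Differences near 0 changed sign. Under quantile scaling Tfr2 was 0.036 in antibody-labelled against wild type, and against knockout-labelled livers Tfr2 was 0.13, Trf 0.056, Fth1 0.078 and Ftl1 0.045; with library weights Tfr2 was 0.064 there. Without single libraries, against wild type, Hamp ran from -0.35 to 0.38 and Tfrc from -0.10 to 0.54 in knockout-labelled livers, and Trf from -0.023 to 0.065 and Hamp2 from -0.71 to 0.23 in antibody-labelled livers. Against knockout-labelled livers, Tfr2 ran from -0.10 to 0.16 and Ftl1 from -0.18 to 0.076.

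Over all tested genes, the deviations of same-numbered livers correlated at -0.14 to 0.13, with 1 of 9 pairs above 0.1. Of the 9 livers, 5 correlated best with their own number, and Hamp2 rose with the number in every group. Whether the numbers stand for a shared condition was not tested. With the replicate block Tfrc had an adjusted p of 0.0718 against wild type and 0.0927 against knockout-labelled livers, and Hamp2 passed in the latter (-1.28, adjusted p = 0.0395). Over the whole table, calls numbered 0 to 154, 71 to 666 and 1 to 91 across alternatives in knockout-labelled and in antibody-labelled livers against wild type, and in antibody-labelled against knockout-labelled livers, where the reported counts were 31, 268 and 56. The fewest estimated reads behind a value of a member, 46.8, were those of Hamp2, and the part of depth in its spread was not tested.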
